A study of Mus musculus with 7 samples.

Results

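Lhx6 and Lhx8 encode LIM-homeodomain transcription factors, and their transcripts were followed across 7 arrays of embryonic mouse forebrain with all 3 probes whose transcript accession belongs to either gene. The 2 genes are among 17178 named genes on the array, and the 3 probes among 41174. Lhx6 was read by 1 probe and Lhx8 by 2. The subpallium, that is the septum together with the ganglionic eminences, was dissected at E12.5 (E for embryonic day) from female embryos of the CD-1 strain, and each array holds the RNA of 1 of them. The first group, 3 embryos labelled Otx2 cKO, combined a floxed Otx2 allele with RxCre, and the second, 4 embryos, is labelled only as control, with no allele named. Otx2 encodes a homeodomain factor of the anterior brain, and the comparison asks which transcripts differ when it is deleted. Cre in this line acts across the forebrain but spares a caudal dorsomedial territory that includes the choroid plexus and the cortical hem. Litter 2 supplied cKO arrays 1 and 3 and control arrays 2 and 3. Slide 1 held cKO array 1 with control arrays 1 and 2, and slide 2 held the other arrays.

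LIM-homeodomain proteins bind DNA through their homeodomain and bind cofactors, above all Ldb1, through their LIM domains. In the ventral telencephalon, Sonic hedgehog signalling and the homeodomain factor Nkx2-1 pattern the medial ganglionic eminence (MGE), and Lhx6 and Lhx8 are switched on in MGE cells as targets of Nkx2-1. Lhx6 is kept by MGE-derived interneurons as they migrate to the cortex and is needed for their positioning and for somatostatin and parvalbumin fates. Lhx8 is needed for cholinergic neurons of the basal forebrain and striatum, and the 2 genes have partly overlapping functions in the early MGE.

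Both genes start on the minus strand, and the windows around their annotated starts are shown because the 2 transcripts moved in the same direction. RefSeq (GRCm38.p6) gives 1 such window for Lhx8 and 3 for Lhx6, each with 250 bases before the start and 50 after it. The Lhx8 window lies at chr3:154330511-154330810, and the most upstream Lhx6 window at chr2:36105359-36105658. Capitals mark the 50 bases from the start site on.
Lhx8: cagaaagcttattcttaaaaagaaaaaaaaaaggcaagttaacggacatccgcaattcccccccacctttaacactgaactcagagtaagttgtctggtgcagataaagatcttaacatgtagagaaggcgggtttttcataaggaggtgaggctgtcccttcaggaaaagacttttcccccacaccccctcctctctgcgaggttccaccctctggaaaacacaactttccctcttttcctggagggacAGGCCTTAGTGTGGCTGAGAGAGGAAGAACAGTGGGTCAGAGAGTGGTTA
Lhx6: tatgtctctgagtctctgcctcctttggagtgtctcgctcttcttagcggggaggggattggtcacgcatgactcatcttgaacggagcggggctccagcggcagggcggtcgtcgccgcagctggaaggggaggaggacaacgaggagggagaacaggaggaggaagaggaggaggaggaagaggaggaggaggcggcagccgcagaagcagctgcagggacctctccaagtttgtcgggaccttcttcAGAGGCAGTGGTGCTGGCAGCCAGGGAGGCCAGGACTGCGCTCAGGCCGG
Searched on both strands, none of the 4 windows held TAATCC, the core bound by Otx-type homeodomains, which 7.06% of 32851 RefSeq windows of 300 bases hold. None held TAATTA, a general homeodomain core present in 5.29%, or CACTTGA, a core bound by Nkx2-1 and present in 3.06%. These letters alone are absent from these windows.

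On all 7 arrays the 3 probes were well above background and none was saturated. Values are log2 processed signals relative to the 75th percentile of the same array, so 0 stands for that percentile. Differences are cKO minus control, with limma's moderated standard error (SE). Adjusted p-values come from limma with Benjamini-Hochberg adjustment over 13350 genes tested, and the threshold was 0.05. Signal of the Otx2 probe was raised in the cKO-labelled group, against the label. It read 1.78, 2.34 and 1.77 in cKO arrays 1 to 3, against 0.19, 0.55, 0.48 and 0.56 in control arrays 1 to 4 (difference 1.52 ± 0.17 SE, adjusted p = 0.0357 by limma), and no fit without a single array called it (adjusted p 0.0561 to 0.157). The sources used here do not give where this probe lies relative to the deleted part of the gene, so it does not settle the labels, and the groups are called by them throughout. The subpallial genes Dlx2 and Nkx2-1 were well above background on all 7 arrays.

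Lhx8 was the more reduced of the pair. Its brighter probe had processed signals of 5812, 4192 and 4967 in cKO arrays 1 to 3, against 22354, 23806, 20151 and 21467 in control arrays 1 to 4. Scaled, these were log2 values of 1.53, 0.99 and 1.56 in the cKO-labelled arrays and 3.20, 3.61, 3.44 and 3.33 in the controls. The groups did not overlap: the highest cKO array lay 1.64 below the lowest control, and cKO array 2 was the lowest of all. Mean levels were 1.36 ± 0.32 in cKO (SD, n = 3) and 3.40 ± 0.17 in controls (SD, n = 4). Lhx8 thus fell by 2.04 ± 0.17 SE on the log2 scale, which is 4.10-fold (95% interval 3.11 to 5.42) or 24.4% of the control level, with an adjusted p of 0.0152 from limma. It ranked 12 among 13350 genes by the size of its decrease and 6 by p.

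The dimmer Lhx8 probe gave a similar decrease. It read -0.09, -0.54 and -0.007 in cKO arrays 1 to 3, against 2.00, 2.07, 2.00 and 1.85 in the controls. Again no cKO array reached a control array. The difference was -2.19 ± 0.15 SE, and both Lhx8 probes had an adjusted p of 0.0271 when limma was run over 28521 probes, of which 14 were called lower (0.0491% of probes). The dimmer probe ranked 1 of all probes by p.

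Lhx6 was reduced by a smaller amount. Its probe had processed signals of 9210, 6306 and 6230 in cKO arrays 1 to 3, against 20621, 15170, 16725 and 17678 in control arrays 1 to 4. Scaled, it read 2.19, 1.58 and 1.88 in the cKO-labelled arrays and 3.09, 2.96, 3.17 and 3.05 in the controls. The groups did not overlap, with a gap of 0.77, and cKO array 2 was again the lowest. The mean was 1.89 ± 0.30 in cKO (SD, n = 3) and 3.07 ± 0.09 in controls (SD, n = 4). Lhx6 fell by 1.18 ± 0.15 SE, which is 2.27-fold (95% interval 1.78 to 2.89) or 44.1% of the control level. Its adjusted p of 0.0492 by limma lies just inside the threshold, and its rank was 77 by the size of the decrease and 25 by p. Tested over all probes instead of over genes, the adjusted p was 0.086, and with the percentile taken over all spots, flagged ones included, it was 0.0865 at a difference of -1.19.

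Both genes were thus among the 17 called lower, a class that holds 0.127% of the genes tested. Every cKO array lay below every control for 7.64% of all genes, so the lack of overlap alone is common here. In bulk tissue, fewer Lhx6- or Lhx8-expressing cells and less of the transcript per cell cannot be told apart.

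**Figure D1:**
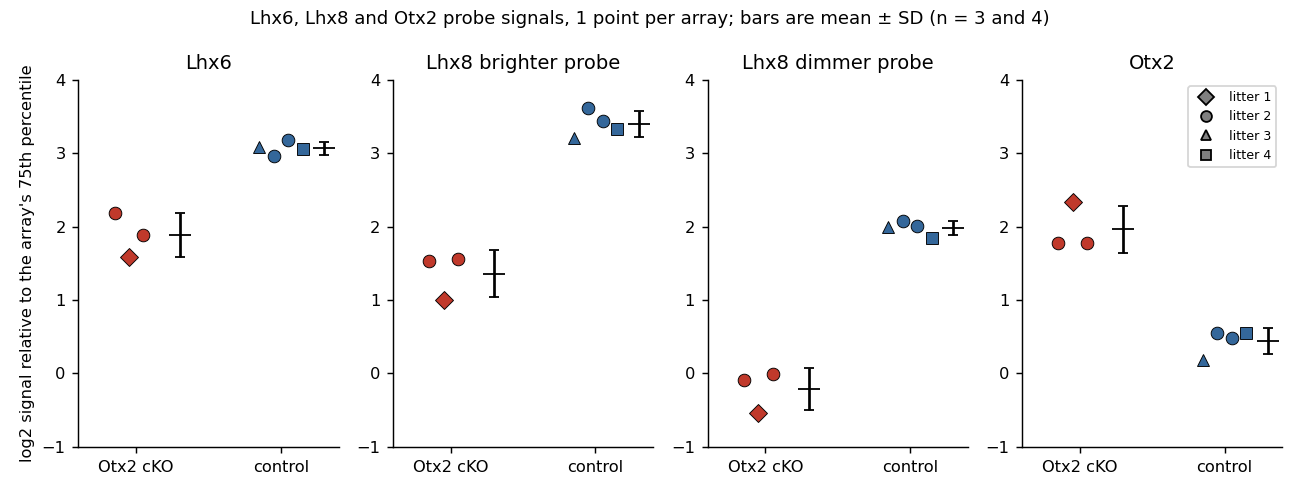
Log2 signal of the Lhx6 and Lhx8 probes relative to each array's 75th percentile (y axis, log2 units), with the Otx2 probe beside them, 1 point per array shaped by litter and bars at mean ± SD; cKO-labelled arrays stand left of controls. For Lhx6 and Lhx8 all 3 cKO points lie below all 4 control points, by 1.64 for the brighter Lhx8 probe and by 0.77 for Lhx6.

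Both genes were lower within each slide and within litter 2, but the calls were lost there and when several single arrays were left out. Every cKO array lay below every control for both genes, so the direction within a slide or litter was fixed in advance. With slide as a block, Lhx8 differed by -2.02 (adjusted p = 0.0398 by limma) and Lhx6 by -1.16 (adjusted p = 0.108). Within slide 1 the differences were -1.88 for Lhx8 and -0.83 for Lhx6, and within slide 2 they were -2.11 and -1.38. Within litter 2, which has 2 cKO-labelled and 2 control embryos, Lhx8 differed by -1.98 and Lhx6 by -1.03. None of these within-slide or within-litter values passed the threshold, and limma called 0 genes of the whole table in those fits (412 in slide 1, 1194 in slide 2 and 845 in litter 2 at an unadjusted p under 0.05). Lhx6 passed without cKO array 1 (adjusted p = 0.0362). It missed without cKO array 2 (0.0759), cKO array 3 (0.212) or control arrays 1, 2, 3 or 4 (0.173, 0.132, 0.201 and 0.192). Lhx8 passed without cKO array 1, cKO array 2 or control array 1 (0.0362, 0.0349 and 0.0406). It missed without cKO array 3 (0.0648) or control arrays 2, 3 or 4 (0.0598, 0.106 and 0.0840).

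**Figure D2:**
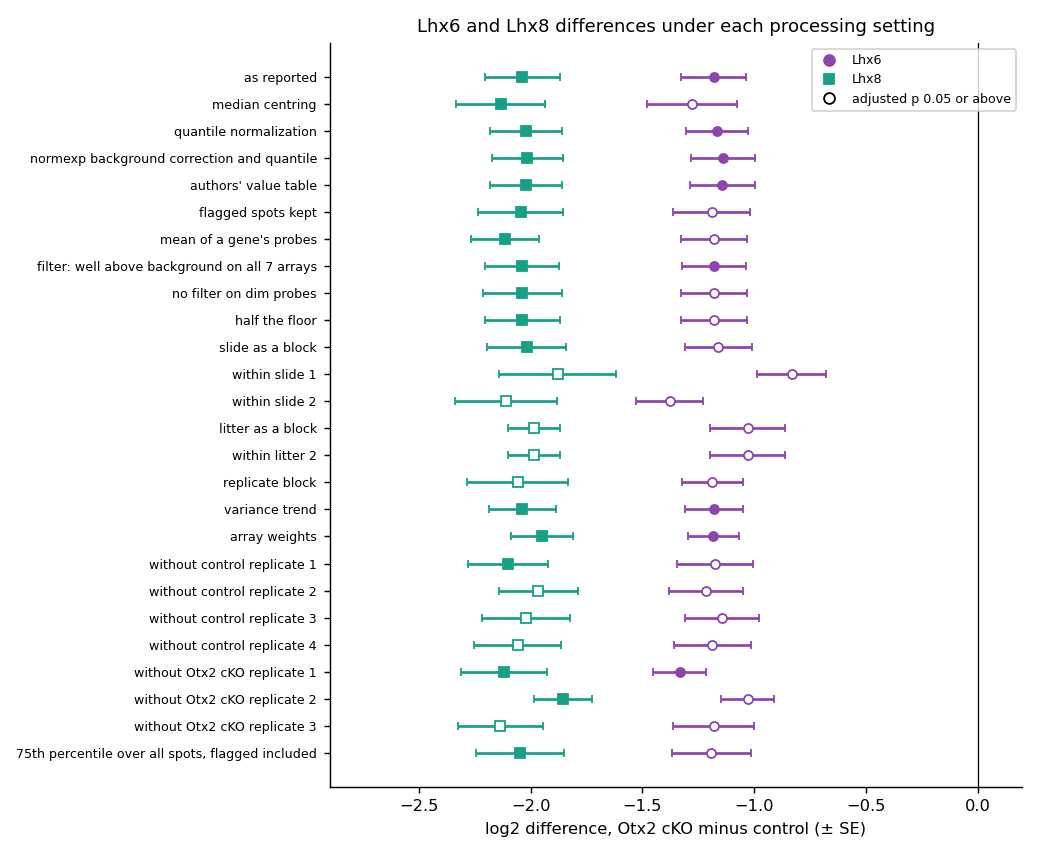
Difference of Lhx6 and of Lhx8 between cKO-labelled and control arrays (x axis, log2 units) under each processing setting (y axis; the tests over all probes, the dimmer Lhx8 probe among them, are not drawn), with bars of ± SE, filled points under an adjusted p of 0.05 and open points at or above it. Lhx8 stays between -2.14 and -1.85 and Lhx6 between -1.38 and -0.83.

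The measured decrease was larger for Lhx8 than for Lhx6 by 0.86 on the log2 scale, a 1.81-fold difference between the 2 changes. Different probes read the 2 genes, with only 1 for Lhx6, and whether the probes respond equally to a change was not tested. Taken as the Lhx8 value minus the Lhx6 value and set to 0 at the control mean, the arrays read -0.99, -0.92 and -0.66 in cKO arrays 1 to 3, against -0.21, 0.32, -0.06 and -0.05 in control arrays 1 to 4. The groups did not overlap. No other of the 35 assignments of arrays to the groups gave a difference as large. The exact permutation test, with its one-sided p doubled, gave p = 0.0571, the smallest that doubling allows. Counting assignments by absolute difference, chosen after seeing the data, gave an exact permutation p of 0.0286, the smallest that this counting allows. Whether the difference passes thus depends on how the two-sided p is formed. Within slide 1 the difference was -1.05, within slide 2 it was -0.73 and within litter 2 it was -0.96. The negative sign of these values follows from the groups not overlapping.

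None of the other LIM-homeobox genes was called. Of 10 such genes 8 were tested by limma, 0 passed in either direction (2 at an unadjusted p under 0.05, as 11.0% of all genes were), and the median difference was 0.11 against 0.01 over all genes. The sign of that median was not stable: it stayed positive with median centring (0.02) and quantile normalization (0.03) but was -0.08 when flagged spots were kept, -0.11 on the log2 values the authors deposited and -0.09 without cKO array 2. Lhx3 and Lmx1a were not well above background on any array. Lhx5, a LIM-homeodomain factor of the developing diencephalon, read 1.72, 1.65 and 1.26 in cKO arrays 1 to 3, against 0.69, 0.98, 1.02 and 1.11 in controls (0.59 ± 0.15 SE, adjusted p = 0.276 by limma). All 3 cKO values lay above the controls, as in 5.14% of all genes. Lhx9 had a similar difference of 0.59 ± 0.18 SE (adjusted p = 0.313), with overlapping groups, and its second probe gave 0.72. Lhx2, which acts in telencephalic progenitors, differed by 0.32 ± 0.15 SE (adjusted p = 0.51) with 1 cKO array left out as flagged.

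Isl1, a LIM-homeodomain factor of striatal precursors, read 1.58, 1.54 and 1.54 in cKO arrays and 1.70, 1.59, 1.84 and 1.63 in controls. That is a difference of -0.14 ± 0.08 SE, small and not called, although the groups do not overlap. Lhx1 differed by -0.09 ± 0.16 SE with overlapping groups. Isl2, Lhx4 and Lmx1b lay near the floor of the scale, with differences of -0.35, -0.06 and 0.27 and overlapping groups. Lmx1b, with 1 control array left out as flagged, was -1.41 when flagged spots were kept and was negative on the deposited log2 values too. Without single arrays Lmx1b ranged from -0.05 to 0.61 and Lhx4 from -0.29 to 0.27.

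**Figure D3:**
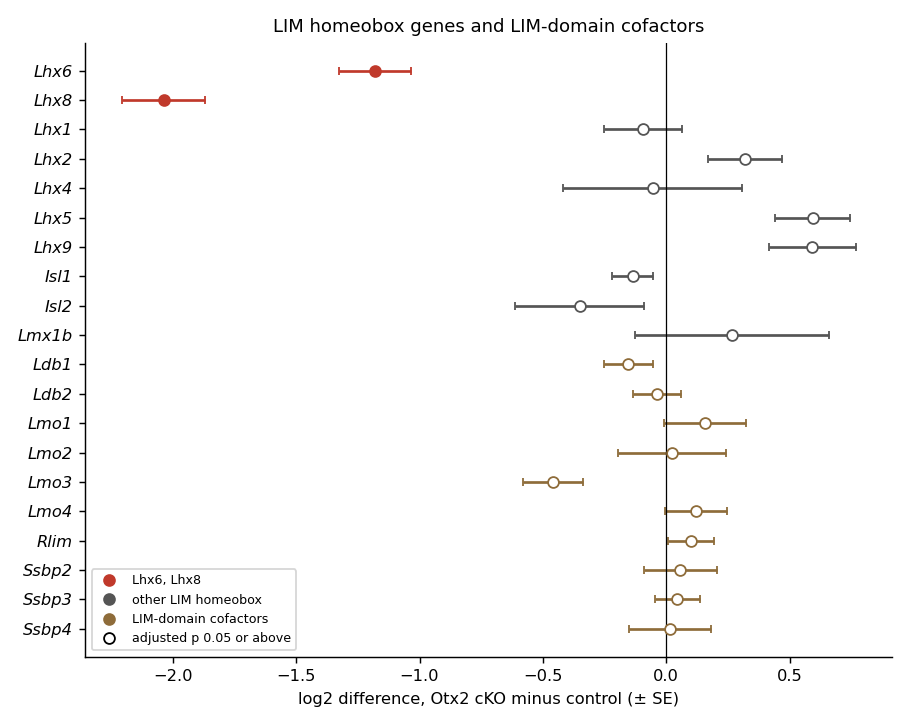
Difference between cKO-labelled and control arrays (x axis, log2 units, bars are ± SE) for Lhx6, Lhx8, the other LIM-homeobox genes and the LIM-domain cofactors (y axis). Lhx8 and Lhx6 lie at -2.04 and -1.18, and the other genes lie between -0.46 and 0.59.

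Genes of the LIM-domain cofactor list, which holds Ldb, LIM-only, Ssbp and Rlim genes, were also not called. Of 10 tested by limma, 0 passed (1 at an unadjusted p under 0.05), with a median difference of 0.03. Not all of these encode proteins that LIM domains bind directly. Ldb1, the adaptor that joins LIM-homeodomain proteins into complexes, read 2.15, 2.16 and 2.08 in cKO arrays and 2.36, 2.46, 2.19 and 2.12 in controls (-0.15 ± 0.10 SE, adjusted p = 0.632 by limma). Lmo3, a LIM-only protein, had the list's largest difference. It read 1.27, 0.99 and 1.02 in cKO arrays, all below the controls at 1.76, 1.50, 1.57 and 1.37 (-0.46 ± 0.12 SE, adjusted p = 0.283). The other tested genes of the list, Ldb2, Lmo1, Lmo2, Lmo4, Rlim, Ssbp2, Ssbp3 and Ssbp4, differed by -0.04 to 0.16 on their brightest probes. The second Ssbp2 probe gave -0.29 ± 0.14 SE and the second Ssbp3 probe -0.07 ± 0.12 SE.

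The patterning list holds 16 genes of Hedgehog signalling and forebrain transcription factors, not all of which act upstream of Lhx6 and Lhx8. All were tested by limma and 0 passed (2 at an unadjusted p under 0.05), with a median of -0.03. Nkx2-1 read 2.72, 3.27 and 2.97 in cKO arrays, against 2.43, 3.02, 3.04 and 2.97 in controls (0.13 ± 0.20 SE, adjusted p = 0.854 by limma). The groups overlapped. Shh, which encodes the ventralising signal, read -1.54, -0.83 and -1.34 in cKO arrays and -1.46, -1.02, -0.95 and -1.20 in controls (-0.08 ± 0.20 SE, adjusted p = 0.911), again overlapping. Olig2, a bHLH factor of ventral progenitors, read 0.99, 0.86 and 1.12 in cKO arrays, below all controls at 1.60, 1.73, 1.89 and 1.72. Its difference of -0.74 ± 0.10 SE had an adjusted p of 0.068 and its second probe gave -1.06. Olig2 passed in 6 of 25 alternatives, with an adjusted p as low as 0.0166 under a variance trend. Otx1, the paralogue of Otx2, differed by 0.70 ± 0.18 SE (adjusted p = 0.282), and its second probe by 1.05. Dlx6, a homeodomain factor of subpallial neurons, differed by -0.27 ± 0.12 SE (adjusted p = 0.481), and Hhip, a Hedgehog antagonist, by 0.25 ± 0.18 SE (adjusted p = 0.658).

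Genes of MGE-derived interneurons were mostly lower in the cKO-labelled arrays. The list was drawn up with earlier results of these data known, so its shares beside all genes were described, not tested. Of 15 genes 14 were tested, 13 had a negative difference, as 46.7% of all genes had, and 2 were called lower, as 0.127% of all genes were. None was called higher (0.0824% of all genes), and 8 were under an unadjusted p of 0.05 (11.0% of all genes). The median difference was -0.59, against 0.01 over all genes. In 8 of the 14 every cKO array lay below every control, as in 7.64% of all genes. Elfn1, a postsynaptic adhesion protein of somatostatin interneurons, read -1.60, -2.06 and -1.93 in cKO arrays, against -0.44, -0.56, -0.66 and -0.66 in controls (-1.28 ± 0.13 SE, adjusted p = 0.0238 by limma). Nxph1, a neurexophilin that binds neurexins, read -1.17, -1.35 and -1.16 in cKO arrays, against -0.34, -0.31, -0.34 and -0.48 in controls (-0.86 ± 0.09 SE, adjusted p = 0.0238). Neither gene's groups overlapped. Leaving out single arrays ended the Nxph1 call each time (adjusted p 0.0566 to 0.121), and the Elfn1 call every time except without cKO array 1 (0.0352 to 0.119).

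Sst, which encodes somatostatin, had the lowest difference of all 13350 genes and still missed the threshold. It read 1.96, -0.11 and -0.23 in cKO arrays, against 4.25, 3.96, 4.11 and 3.83 in controls. The cKO arrays were all lower but far apart, with cKO array 1 above the other two. The difference was -3.50 ± 0.52 SE (adjusted p = 0.0859 by limma), and without cKO array 1 it was -4.21 with an adjusted p of 0.00154. Npy, which encodes neuropeptide Y, read 0.66, 0.05 and -0.02 in cKO arrays, against 1.66, 1.51, 1.94 and 1.61 in controls (-1.45 ± 0.19 SE, adjusted p = 0.0609). Without cKO array 1 it passed, with an adjusted p of 0.0362. Maf differed by -0.90 ± 0.43 SE with overlapping groups (adjusted p = 0.507).

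The other interneuron genes named here were chosen after their values were seen. Sox6, a transcription factor of MGE-derived interneurons, read 2.68 and 2.84 in cKO arrays 1 and 2, against 3.40, 3.31 and 3.49 in control arrays 1 to 3 (-0.64 ± 0.11 SE, adjusted p = 0.22 by limma). Its groups did not overlap, and 2 arrays were dropped as flagged. Its other 3 probes gave -0.52, -0.48 and -0.11. Satb1 differed by -0.36 ± 0.15 SE with overlapping groups. Cxcr4, the chemokine receptor of migrating interneurons, differed by -0.12 ± 0.15 SE on its brighter probe and by 0.66 on the other. Npas1 had the list's only positive difference, 0.12 ± 0.17 SE.

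Among cholinergic lineage genes 6 of 8 were tested and 2 passed, both lower, as 0.127% of all genes were; 3 were under an unadjusted p of 0.05. The median was -0.55, against 0.01 over all genes, and ranged from -0.83 without cKO array 2 to -0.32 without cKO array 3. Per array, relative to the control mean, the list's median was -0.85 in cKO array 1, 0.01 in cKO array 2 and lowest in cKO array 3, against 0.09, -0.03, 0.03 and -0.16 in control arrays 1 to 4, so cKO array 2 lay among the controls. Both called genes are Gbx homeobox genes, transcription factors rather than parts of the acetylcholine machinery. The cholinergic list too was drawn up with earlier results of these data known, so its share beside all genes was described, not tested. Gbx2 read between -2.32 and -1.65 in the 3 cKO arrays, against -0.02, -0.03, -0.03 and -0.29 in controls (-1.90 ± 0.16 SE, adjusted p = 0.0152 by limma). Gbx1 read -4.29, -4.58 and -4.23 in cKO arrays, against -2.92, -2.73, -2.82 and -3.11 in controls (-1.47 ± 0.13 SE, adjusted p = 0.0152). Leaving out single arrays ended both calls every time except without cKO array 1 (adjusted p 0.0352 to 0.11 for Gbx2 and 0.0454 to 0.11 for Gbx1). Chat, which encodes choline acetyltransferase, and Slc18a3, the vesicular acetylcholine transporter, were well above background on too few arrays to be tested. Ache, acetylcholinesterase, differed by -0.63 ± 0.15 SE with no overlap (adjusted p = 0.254). Ngfr differed by -0.47 ± 0.36 SE and Slc5a7, the choline transporter, by 0.10 ± 0.21 SE, both with overlapping groups. The second Ngfr probe gave 0.06 ± 0.45 SE.

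**Figure D4:**
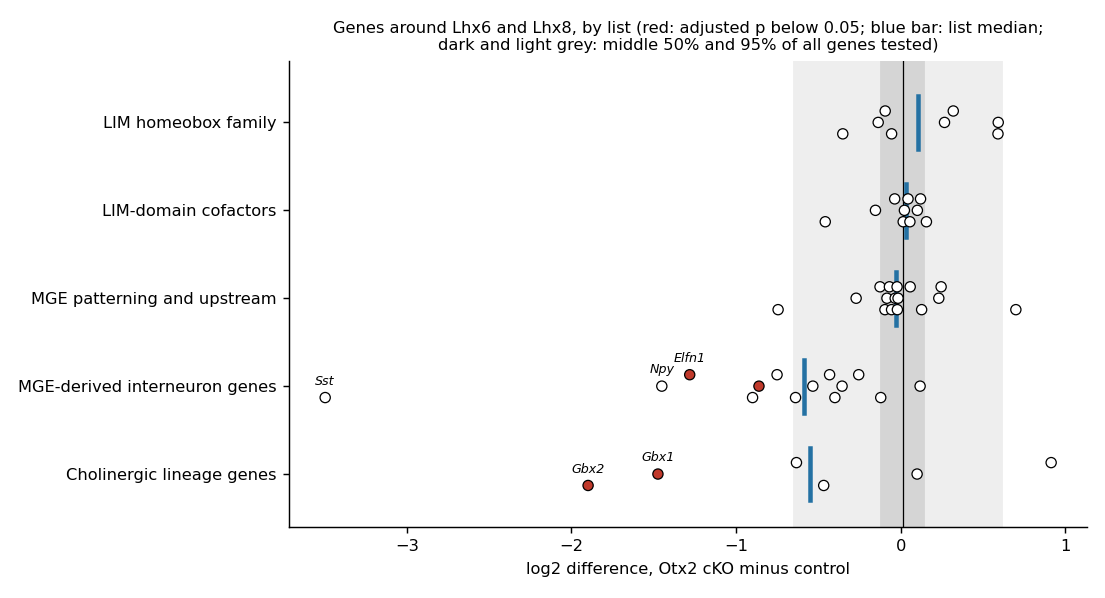
Difference between cKO-labelled and control arrays (x axis, log2 units) for each tested gene of the 5 pathway lists (y axis), with 1 point per gene, red where the gene was called, and a blue bar at the list median; grey bands hold the middle 50% and 95% of all genes tested. The interneuron and cholinergic lists have medians of -0.59 and -0.55, against 0.01 over all genes.

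Other cell types were read beside these results on all arrays. Pan-neuronal genes had a median per array, relative to the control mean, of -0.08, -0.25 and -0.11 in cKO arrays 1 to 3, against -0.004, 0.02, 0.04 and -0.06 in controls 1 to 4, with 6 of 8 genes negative and 0 called by limma (2 at an unadjusted p under 0.05). Progenitor and cell-cycle genes ranged from 0.005 to 0.21 in cKO arrays and from -0.12 to 0.08 in controls, with 0 of 10 called or under an unadjusted p of 0.05. Mesenchyme and pericyte genes varied most, from -2.01 to 1.89 in cKO arrays and from -2.23 to 0.98 in controls, and cKO array 2, which was lowest for Lhx6 and Lhx8, was highest for them. Their part in the Lhx6 and Lhx8 differences was not tested. Without cKO array 2 the differences were -1.85 for Lhx8 and -1.03 for Lhx6.

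The genes whose profile over the 7 arrays lay closest to each member were found by the root-mean-square distance between profiles set to 0 at the control mean, among 12675 genes with a value on every array. This distance rises with any difference in the size of the change. Among the 5 closest to Lhx6 were Elfn1 (0.13), Plxna4, a semaphorin receptor (0.14), Gnrh1, the gonadotropin-releasing hormone gene (0.16), and Kctd8, a GABA-B receptor subunit (0.17). These 4 genes differed by -1.10 to -1.28 between the groups. Closest to Lhx8 were Gbx2 (0.19), Tal2, a bHLH factor (0.33), Gbx1 (0.38), Megf11, an adhesion protein (0.40), and Cpne4, a copine (0.42), with differences of -1.47 to -2.28. Lhx6 and Lhx8 lay 0.59 apart: Lhx6 ranked 12 among the genes closest to Lhx8, and Lhx8 ranked 630 among those closest to Lhx6.

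**Figure D5:**
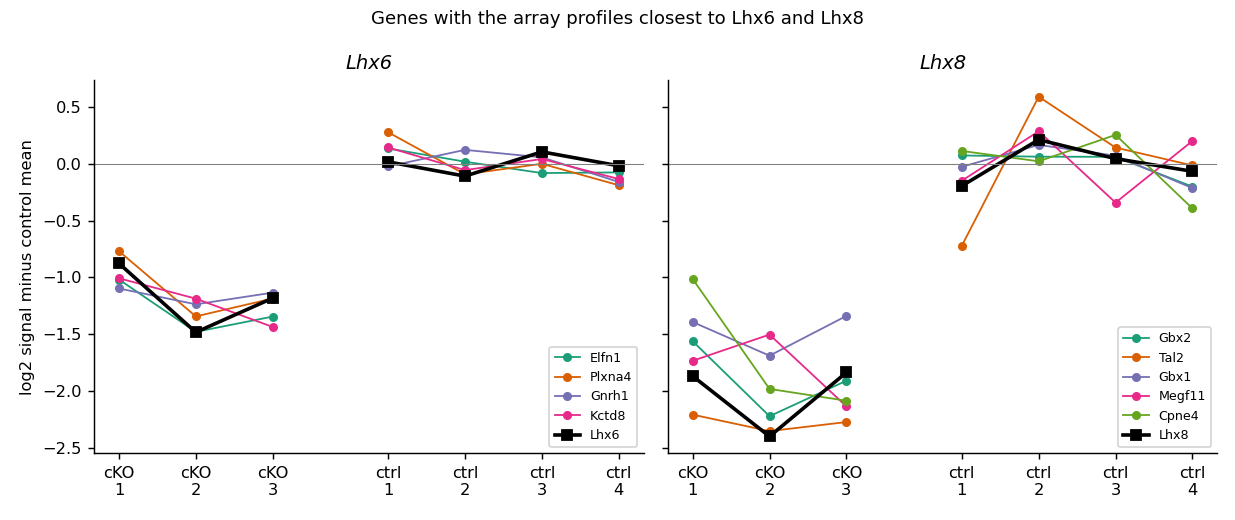
Log2 signal relative to the control mean (y axis, log2 units) on each of the 7 arrays (x axis, cKO-labelled arrays left of controls) for Lhx6 with 4 of the 5 genes closest to it and for Lhx8 with its 5 closest. The root-mean-square distance is 0.13 between Lhx6 and Elfn1 and 0.19 between Lhx8 and Gbx2.

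The genes that flank the members in the RefSeq gene order were not called. Next to Lhx6, Ndufa8 differed by -0.003 ± 0.10 SE, Morn5 by -0.14 ± 0.14 SE, Rbm18 by -0.10 ± 0.08 SE and Mrrf by 0.21 ± 0.09 SE. Next to Lhx8, Acadm differed by 0.09 ± 0.11 SE, Slc44a5 by -0.14 ± 0.39 SE and Tyw3 by 0.71 ± 0.31 SE (adjusted p = 0.455 by limma). All 7 had overlapping groups, and Cryz had too few unflagged values.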

How the data were processed

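Each array measured 1 embryo in 1 colour (Cy3). Per the file headers, Agilent Feature Extraction 10.7.3.1 subtracted background from each spot intensity and detrended it array by array; the submitters' processing notes name 10.5. The authors also deposited log2 values of unstated scale. That table follows the order of the median signal and shares 1 maximum across columns (medians 7.62, 7.62 and 7.64 for cKO arrays 1 to 3 and 7.61, 7.63, 7.61 and 7.62 for controls 1 to 4); it served as an alternative.

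Control spots and flagged spots (1.24% to 2.51% per array) were left out, spots of a probe averaged, signals scaled to the 75th percentile of their array, floored at a log2 of -7.45 and taken to log2. Probes were named through RefSeq accessions (24844 of 41174 with 1 symbol, 16330 with none, 0 with several). A gene was its brightest probe, tested when well above background on at least 3 of 7 arrays: 13711 genes passed and 13350 had enough values. The fit was limma 3.58.1 in R 4.3.3, group as the only term, tested on simulated data first. The number of arrays limits the precision. Each array is a separate embryo, but cKO arrays 1 and 3 and control arrays 2 and 3 share litter 2. The members, gene lists and naming rule were chosen with earlier results of these data known; the rule names list members past the threshold, the 4 largest differences of each pathway list, the 5 nearest profiles and the flanking genes; a few genes that it names are not reported here. Alternatives varied scaling, background, probe, filter, floor, blocks and arrays left out. The background alternative was normexp with an offset of 50, on median signals because the scanner output gave no mean signals.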

Additional observations from a re-analysis of the deposited data

Results flagged for a closer look

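In 48 groups of 4 control arrays examined, 3 held an array that stood apart from the others by Dixon's test at its 95% critical value for 4 samples, where chance gives about 1 in 20. Control array 1 was low for Nkx2-1, at 2.43 against 2.97 to 3.04 in the other controls (gap over range 0.893), and for Lhx1, at -0.90 against -0.42 to -0.34 (0.849). Control array 4 was low for Gbx2, at -0.29 against -0.03 to -0.02 (0.956).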

How the results depend on the processing

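Lhx8 was past the threshold in 17 of 26 alternatives (-2.19 to -1.85) and Lhx6 in 7 of 26 (-1.38 to -0.83). Every cKO array lies below every control for both, so a constant direction is no sign of stability. The cause of lost calls was not tested.

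Lhx6 missed the threshold with median centring (-1.28), flagged spots kept (-1.19), the mean of a gene's probes, no filter, a halved floor or all probes tested (each -1.18), slide as a block (-1.16), slide 1 (-0.83), slide 2 (-1.38), litter as a block or litter 2 alone (-1.03) and the percentile over all spots (-1.19), which, like the test over all probes, was chosen after seeing the data. Lhx8 missed it within slide 1 (-1.88), slide 2 (-2.11) and with litter as a block or alone (-1.98). Leaving out single arrays gave -1.33 to -1.03 for Lhx6 and -2.14 to -1.85 for Lhx8. Replicate numbers do not pair the embryos: those numbered 3 share litter 2, and those numbered 1 and 2 come from different litters (same-number correlations 0.11, -0.53 and 0.03); with the replicate block Lhx6 was -1.19 and Lhx8 -2.06, each with an adjusted p of 0.322, and 0 genes were called (1498 at an unadjusted p under 0.05).

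Genes called, 28 in the report, numbered 43 in the authors' table, 15 with no filter, 18 with the floor halved, 16 with slide as a block, 50 with a variance trend and 67 with array weights. They numbered 0 within slide 1, slide 2 and litter 2 and with litter as a block, where 412, 1194, 845 and 865 had an unadjusted p under 0.05, and 0 to 25 with single arrays left out; in the 4 of these fits with 0, between 865 and 1465 had an unadjusted p under 0.05.

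List medians moved as follows. The LIM-homeobox median was -0.11 in the authors' table, 0.32 with genes well above background on all 7 arrays, -0.19 in slide 2 and -0.16 in litter 2 (-0.091 to 0.27 with single arrays left out). The cofactor median was -0.078 with median centring, which moved the median of all genes to -0.080 as well, -0.037 in slide 2, -0.022 with litter as a block and -0.033 with array weights (-0.059 to 0.070). The interneuron median was -0.69 with median centring, -0.52 with the mean of probes, -0.64 in slide 2 and -0.66 with litter as a block or alone (-0.65 to -0.58). The cholinergic median was -0.97 in slide 1 (-0.83 to -0.32). The patterning list, with no call in the report, had 1 lower call, Olig2, in 6 of 25 alternatives. The Lhx8 change minus the Lhx6 change, -0.86, passed only with the two-sided p taken by absolute difference (0.0286), chosen after seeing the data.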

Other observations

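Marker lists of the septum, which is part of the dissected tissue, and of the hypothalamic and optic region held 3 called genes outside the Lhx6 and Lhx8 pathway. Of 7 tested hypothalamic and optic genes, 2 were called higher, as 0.0824% of all genes were. They were the homeobox genes Hmx2 (1.73 ± 0.17 SE) and Hmx3 (2.12 ± 0.23 SE), with adjusted p of 0.0238 and 0.0299 by limma. The list median was 0.30. Of the 7 genes, 6 had a positive difference and 1, Nkx2-2, a negative one. Nkx2-2 differed by -1.59 ± 0.38 SE (adjusted p = 0.254 by limma), with every cKO array below every control. It was well above background on 1 cKO array and on 4 control arrays. The second Hmx2 probe, well above background on 4 arrays, gave 1.10 (adjusted p = 0.482 by limma over all probes). Averaging both Hmx2 probes lowered the difference to 1.41 and ended the call (adjusted p = 0.147 by limma). Of 6 septal genes, 1 was called lower, as 0.127% of all genes were. It was the zinc-finger gene Prdm16 (-2.97 ± 0.23 SE, adjusted p = 0.0152), and the list median was 0.05. Both shares were described, not tested. Hmx2, Hmx3, Prdm16 and Nkx2-2 were named after their values were seen. Leaving out single arrays ended the Hmx3 call each time (adjusted p 0.0566 to 0.133), the Hmx2 call except without control array 1 (0.0249 to 0.11) and the Prdm16 call except without cKO array 1 or control array 1 (0.0325 to 0.106).

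No gene was called by limma in the lists for the lateral and caudal ganglionic eminences (12 tested, median -0.007), pallium (7, -0.03), choroid plexus (6, 0.33), endothelium (8, -0.11), microglia and macrophages (8, -0.14), erythroid cells (8, 0.16) or mesenchyme and pericytes (8, -0.46). At an unadjusted p under 0.05, which 11.0% of all genes tested had, the counts in the order given were 3, 3, 0, 0, 0, 0 and 0. In the pallial list, every cKO array lay below every control for Neurod2 (-0.80 ± 0.18 SE) and Neurod6 (-0.76 ± 0.16 SE). For Emx2 (0.56 ± 0.13 SE) every cKO array lay above. These pallial genes were named after their values were seen.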
